A study of Drosophila melanogaster with 32 samples.

Results

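The libraries described here are the 6 Smurf libraries of 40 days, out of 32 RNA-Seq libraries in the series. They were split in 2 kinds, chosen by their own expression profiles over all genes. Libraries 1d-q, 1d-r and M-16 were taken as Smurf-like, M-16 being intermediate, whereas 5h-c7, 5h-c8 and 1d-p lie close to the 6 non-Smurfs of 40 days. Because the same counts set the 3 and 3 libraries apart, every difference between them is given below as a description and is not tested. A Smurf is a fly whose body turns blue when a food dye leaves the gut, and a non-Smurf keeps the dye in the gut. All flies were mated Drs-GFP females, a line with a GFP reporter of the antimicrobial peptide gene drosomycin, were fed the dye FD&C #1 and were sequenced as pools of whole bodies. The letters before the hyphen give the collection moment. 1d stands for 1 day after the transition, 5h for 5 hours, and M for mixed, a moment that is unknown. At 40 days the Smurfs were 1d-p, 1d-q, 1d-r, 5h-c7, 5h-c8 and M-16, and the non-Smurfs collected alongside were 1d-m, 1d-n, 1d-o, 5h-c5, 5h-c6 and M-13. The collection moment partly coincides with the 2 kinds, since both 5-hour Smurfs are of the second kind and 2 of the 3 1-day Smurfs are of the first.

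Loss of the intestinal barrier is a late event in the life of a fly. Smurf flies are known for strong expression of antimicrobial peptides, which the Toll and Imd pathways switch on, and for reduced expression of digestive enzymes and of genes for egg production. In the ovary, follicle cells first make the vitelline membrane around the oocyte and then the chorion, the outer eggshell. Yolk proteins come from the fat body and the follicle cells.

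Depth was similar among the kinds. The total count was between 12164198 and 19918153 in the 40-day Smurfs and between 13058854 and 19970610 in the 40-day non-Smurfs, with 5h-c7 and 5h-c8 at the low end. Mitochondrial genes took 9.59% of the counts of 1d-q and between 3.76% and 5.85% in the other 40-day libraries. Nothing in the labels says whether pools came from separate cultures, so each p-value measures only the spread between these libraries. In pools of whole bodies, fewer cells of a type and less RNA per cell cannot be told apart. The labelled sex and tissue were checked with markers. The germline genes vas and osk were measured in every 40-day library, and the male accessory gland and testis markers summed to at most 0.271 CPM (counts scaled to a common library size with TMM factors).

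To place each library, a reference was built from the 20 libraries of 20 and 30 days. There, Smurfs differed from non-Smurfs in 3557 of 10387 genes (34.2%; edgeR quasi-likelihood test, Benjamini-Hochberg adjusted p under 0.05), with 2086 higher (20.1%) and 1471 lower (14.2%). These shares are the background for every count below of list members that rose or fell in young Smurfs. The reference score is the slope of the difference between a library and the mean of the 40-day non-Smurfs on the log2FC (log2 fold change) of these genes. For a 40-day non-Smurf the mean of the other 5 was used, which makes its score larger in size than a mean that includes it. A value of 0 is the mean 40-day non-Smurf and a value of 1 the mean effect in the younger Smurfs. The score was 0.726 in 1d-r, 0.505 in 1d-q and 0.325 in M-16. It was 0.0872 in 1d-p, 0.0415 in 5h-c7 and 0.0405 in 5h-c8, so M-16 and 1d-p are the neighbours on either side of the division. Scored against the other 5, the 40-day non-Smurfs ranged from -0.138 in M-13 to 0.0956 in 1d-o, and the lower 3 lay within this range. The upper end of that range was 1d-o alone, and the next non-Smurf, 1d-n, scored 0.0393, below all 3. The 20-day Smurfs scored between 0.563 and 0.814 and the 30-day Smurfs between 0.458 and 1.04, the last in M-10, labelled 32 days. Thus 1d-r and 1d-q reached the range of younger Smurfs, M-16 (with 1d-q and 1d-r, the high-score libraries below) lay between that range and the non-Smurfs, and the other 3 libraries labelled Smurf, the low-score libraries, did not exceed the highest non-Smurf, 1d-o, but lay above the other 5.

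**Figure D1:**
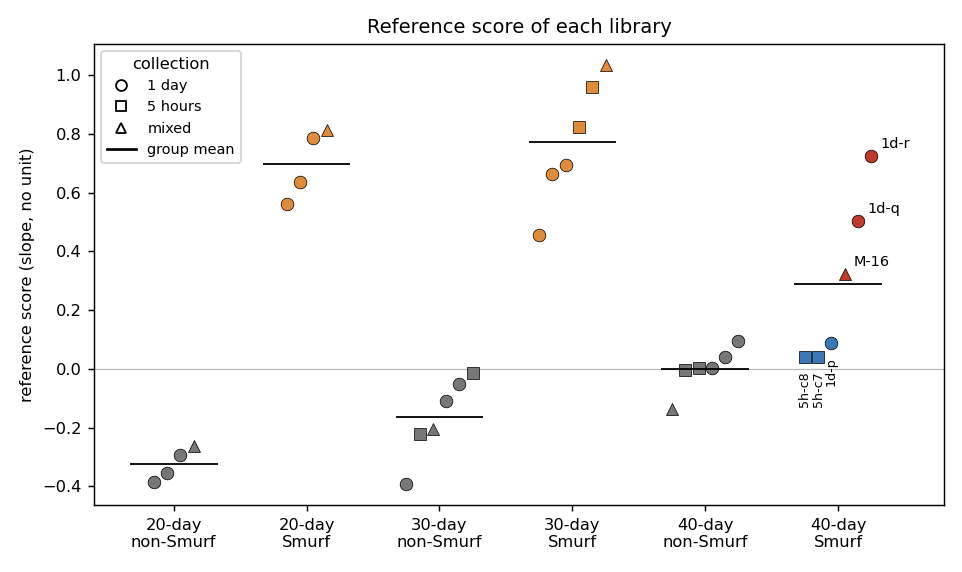
Reference score (slope, no unit) of each of the 32 libraries, by age and state, with group means as lines and the collection moment as the symbol; red and blue mark the 2 kinds of 40-day Smurfs, orange the younger Smurfs and grey the non-Smurfs. Libraries 1d-r, 1d-q and M-16 sit at 0.726, 0.505 and 0.325, and the remaining 40-day Smurfs sit at 0.0872 or less, among the non-Smurfs.

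The 3 high-score libraries did not carry the same part of the reference. In 1d-r the genes that are higher in young Smurfs had a median log2 difference of 0.45 from the 40-day non-Smurfs, and the lower genes one of -0.20. In 1d-q the order was turned, with 0.10 for the higher and -0.34 for the lower genes. M-16 had 0.10 and -0.08. By these medians, the excess of Smurf-induced genes was the larger part in 1d-r and the shortage of Smurf-reduced genes the larger part in 1d-q. Both libraries showed both parts. Genes over 2-fold higher than the mean of the non-Smurfs numbered 476 in 1d-r, and 335 of them were among the reference genes higher in Smurfs, which make up 19.8% of all genes of the level table. In 1d-q the genes over 2-fold lower numbered 568, with 261 among the reference genes lower in Smurfs, which make up 14.0%, and 84 among those higher in Smurfs. In 1d-r 150 of the 210 genes over 2-fold lower were reference genes lower in Smurfs, and only 1 was a reference gene higher in Smurfs. In M-16 117 genes were over 2-fold higher and 177 lower. The counts were 106 and 119 in 1d-p, 201 and 124 in 5h-c7, and 202 and 100 in 5h-c8. In the non-Smurfs the higher genes numbered 331 in 1d-o, 156 in 1d-n and fewer in the others. Their lower genes ran from 47 in 1d-o to 283 in 5h-c6.

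**Figure D2:**
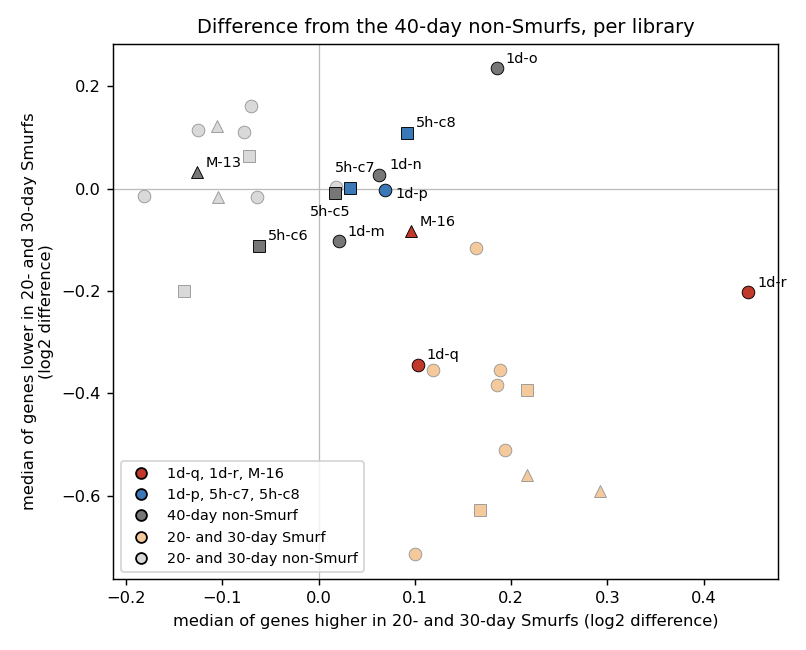
Median log2 difference from the 40-day non-Smurfs of the genes lower (vertical axis) and higher (horizontal axis) in 20- and 30-day Smurfs, 1 point per library, with the collection moment as the symbol (circle 1 day, square 5 hours, triangle mixed). Library 1d-r lies far to the right at 0.45, 1d-q lies low at -0.34 beside the younger Smurfs, and 1d-p, 5h-c7 and 5h-c8 lie among the non-Smurfs.

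A count of single genes gave the largest shares to 1d-r, 1d-q and M-16. The genes counted are part of the reference genes of the score, so this is another view of the same values and no separate evidence. At 20 and 30 days 286 genes separated every Smurf from every non-Smurf, 173 higher and 113 lower. The share of them on the Smurf side of the midpoint was 84.6% in 1d-r, 61.9% in 1d-q and 58.0% in M-16, against 40.9% in 1d-p, 29.4% in 5h-c8 and 24.5% in 5h-c7. In the 40-day non-Smurfs it ran from 4.90% in M-13 to 42.0% in 1d-o, with 23.4% as the highest share of the other 5, so that every low-score library exceeded all non-Smurfs except 1d-o. Of the higher genes 170 were on the Smurf side in 1d-r, 112 in M-16 and 89 in 1d-q. The low-score libraries had 99 in 1d-p, 71 in 5h-c8 and 64 in 5h-c7, and the non-Smurf 1d-o had 111. In this direction 1d-q was thus below 1d-p and 1d-o. Of the lower genes, only 6 were on the Smurf side in 5h-c7, 13 in 5h-c8 and 18 in 1d-p, against 88 in 1d-q, 72 in 1d-r and 54 in M-16. The non-Smurfs ranged from 6 in M-13 to 38 in 5h-c6. Over all 10529 genes of the level table, the nearest library of 1d-q was the 30-day Smurf 1d-k and that of 1d-r and M-16 the 30-day Smurf 1d-j. For 1d-p, 5h-c7 and 5h-c8 it was the 40-day non-Smurf 1d-n. Over the 1000 genes of highest variance it was again a 30-day Smurf for 1d-q, 1d-r and M-16. There it was the 40-day non-Smurf 1d-m for 1d-p, the 30-day non-Smurf 1d-g for 5h-c8 and the 40-day Smurf 5h-c8 for 5h-c7. The root mean square log2 difference of M-16 was 0.398 from the mean of the 40-day non-Smurfs and 0.456 from that of the younger Smurfs, so M-16 was nearer to the former. For 1d-q it was 0.616 and 0.535, and for 1d-r 0.596 and 0.528. For the low-score libraries it was 0.357 and 0.536 in 1d-p, 0.443 and 0.622 in 5h-c7, and 0.413 and 0.651 in 5h-c8. By this measure M-16 was nearer to the 40-day non-Smurfs than 5h-c7 and 5h-c8 were.

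The labels allow a test of all 6 Smurfs against all 6 non-Smurfs of 40 days. The reference score was higher in Smurfs by 0.287 (mean 0.287 ± 0.284 SD against 0 ± 0.0773 SD, n = 6 each, p = 0.0216 in a two-sided exact permutation test with 924 splits). Without the mixed libraries the difference was 0.257 (p = 0.0794, exact permutation test), and without the non-Smurf M-13 it was 0.264 (p = 0.0758, exact permutation test). The loss of the non-Smurfs 5h-c5, 5h-c6, 1d-m or 1d-n in turn also took the exact p above the threshold, to between 0.0541 and 0.0649. Within the collection moments it was 0.393 at 1 day (exact permutation test, p = 0.2, where 3 against 3 libraries cannot go below 0.1), 0.0412 at 5 hours (2 against 2 libraries, exact permutation p = 0.333, the smallest possible) and 0.463 between the mixed libraries. Gene by gene, 0 of 10081 genes (0.00%) passed with edgeR. At an unadjusted p under 0.05 there were 650 genes, and DESeq2 called 23, of which 15 were higher. In the joint model of state and moment, neither the 1-day nor the 5-hour contrast gave a call with edgeR (0 of 10707 genes, 0.00%). Fitted without the other moments, the 5-hour libraries gave 29 calls and the 1-day libraries 0. In the joint model, unadjusted p under 0.05 held for 565 of 10707 genes at 1 day and 773 at 5 hours, and DESeq2 called 56 and 82. Without any effect, a share of 0.05 of the tested genes is expected to pass an unadjusted p of 0.05, so the unadjusted counts are no calls.

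Direction within the moments differed for the genes that fall in young Smurfs. At 1 day, 218 of the 1469 tested genes of this kind had a log2FC above 0, with a median of -0.20. At 5 hours it was 982 of 1469, with a median of 0.11, against a median of -0.52 in the reference. For the 2077 genes that rise in young Smurfs, 1706 had a log2FC above 0 at 1 day and 1316 at 5 hours. The medians were 0.13 and 0.12, beside 0.33 in the reference. Over all tested genes the median was 0.032 at 1 day and 0.0085 at 5 hours. These directions were not tested. Against 5h-c5 and 5h-c6, the 5-hour Smurfs thus leaned toward the reference in its higher genes and away from it in its lower genes. Of all 40-day non-Smurfs, 5h-c5 and 5h-c6 had the most separating lower genes on the Smurf side, 34 and 38 of 113. The 1-day non-Smurf 1d-m was close to them with 31. The part of these non-Smurfs in the 5-hour direction was not tested. Against the mean of all 40-day non-Smurfs, the median of the reference lower genes was 0.0012 in 5h-c7 and 0.11 in 5h-c8.

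The difference of the Smurf effect between 1 day and 5 hours was tested gene by gene at 40 days. It passed for 9 of 10707 genes (0.0841%; edgeR, adjusted p between 0.0213 and 0.0467), and for every one of them the effect was lower at 1 day than at 5 hours. They include eggshell genes of the follicle cells, namely Cp18 (chromosome 3L, 8726791 to 8727613, BDGP6.54), Cp7Fc (chromosome X, 8477117 to 8478320) and Fcp3C (chromosome X, 3173376 to 3174474). The other 6 were CG14187, CG14834, CG17169, CG5973, Jhbp5, a juvenile hormone binding protein family member by name, and amd, a relative of dopa decarboxylase. This contrast uses the same libraries as the division of the Smurfs, so it is not independent of it. In Cp18 the 1-day Smurfs had 0.441, 0.307 and 0.709 CPM (1d-p, 1d-q and 1d-r) and the 1-day non-Smurfs 53.4, 93.4 and 653 CPM. At 5 hours the Smurfs had 297 and 168 CPM (5h-c7 and 5h-c8) and the non-Smurfs 0.487 and 0.146 CPM. The 2 states did not overlap at either moment, but their order was opposite. Jhbp5 had 2.65, 2.52 and 5.27 CPM in the 1-day Smurfs and 35.7 and 33.2 CPM in the 5-hour Smurfs. Its 1-day non-Smurfs lay at 10.2, 21.7 and 5.26 CPM, next to the highest Smurf, and its 5-hour non-Smurfs at 1.89 and 2.34 CPM.

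**Figure D3:**
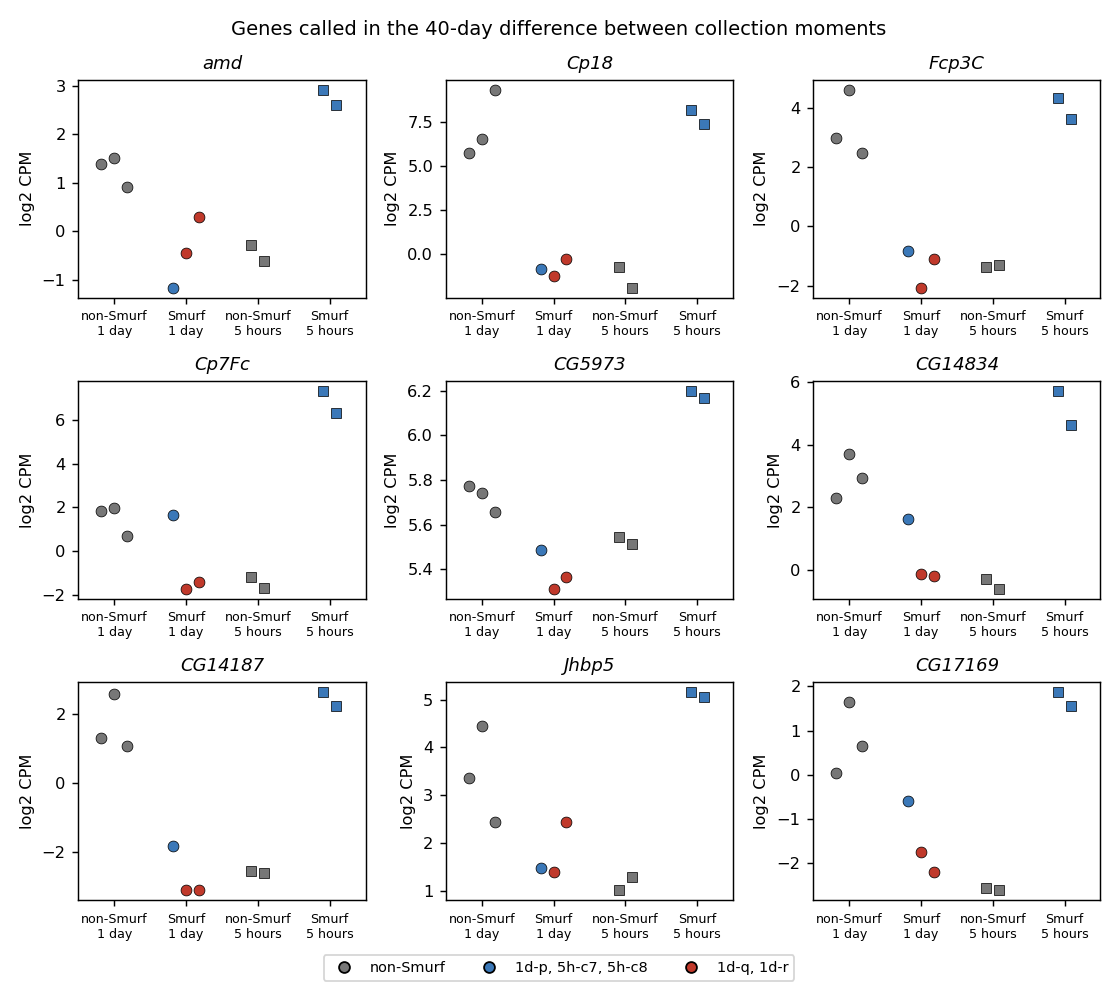
Levels (log2 CPM, prior count 2) of the 9 genes in the 1-day and 5-hour libraries of 40 days, 1 point per library, red for 1d-q and 1d-r, blue for 1d-p, 5h-c7 and 5h-c8, grey for non-Smurfs. In each panel the 5-hour Smurfs are above the 5-hour non-Smurfs, whereas the 1-day Smurfs are below the 1-day non-Smurfs in 7 genes and overlap with them in Cp7Fc and Jhbp5.

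The 9 calls rest on few libraries. No gene passed when 5h-c5, 5h-c6, 5h-c7 or 1d-q was left out, 1 passed without 1d-r, 4 without 1d-n, and 39 passed without 1d-p. The same contrast at 30 days, in libraries that played no part in the division, called 0 of 10750 genes (0.00%; 951 at an unadjusted p under 0.05, 34 with DESeq2). For Cp18 the 30-day difference was 0.92 (log2FC, edgeR adjusted p = 0.895), against -18.57 ± 2.05 (SE) at 40 days. The 5-hour Smurfs of 30 days were 5h-c3 and 5h-c4, with 0.566 and 0.484 CPM of Cp18, below their non-Smurfs with 35.0 and 92.0 CPM. In the joint model of 30 days, the 1-day contrast gave 3 calls among 10750 genes (0.0279%), 1 higher (0.00930%) and 2 lower (0.0186%), and the 5-hour contrast gave 159 (1.48%), 107 higher (0.995%) and 52 lower (0.484%). Fitted alone, these moments gave 17 and 40 calls. Whether the ages differ in this contrast was not tested.

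Eggshell genes showed the widest range among the 40-day Smurfs. All 7 vitelline membrane genes were over 2-fold below the mean of the non-Smurfs in 1d-q, 1d-r and M-16, with median log2 differences of -6.34, -5.83 and -3.52. In 1d-p all 7 were over 2-fold above it, with a median of 1.58. In 5h-c7 the median was 0.16 and in 5h-c8 -1.28. Vm26Aa (chromosome 2L, 5959596 to 5960340, BDGP6.54), a structural protein of this membrane, had 0.0615, 0.152 and 8.47 CPM in 1d-q, 1d-r and M-16 and 235, 42.3 and 22.9 CPM in 1d-p, 5h-c7 and 5h-c8, respectively. Non-Smurfs lay between 14.6 and 415 CPM with a median of 139. So the high-score libraries lay below all 9 others and the low-score libraries lay inside the non-Smurf range. At 20 and 30 days all 7 vitelline membrane genes fell in Smurfs (edgeR, median log2FC -3.71).

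The 9 chorion genes separated the libraries in another way. Their summed level was 1.72 CPM in 1d-q and 2.84 CPM in 1d-r, but 431 CPM in M-16. It was 862, 1513 and 877 CPM in 1d-p, 5h-c7 and 5h-c8. Among the non-Smurfs 5h-c5 and 5h-c6 had only 2.54 and 3.07 CPM, and the other 4 between 488 and 1932 CPM. The chorion was thus near 0 in 4 libraries of 40 days, of which 2 were labelled Smurf and 2 non-Smurf. Cp36 was counted 0 times in 1d-q and in 1d-r, which allows levels of up to 0.184 and 0.152 CPM, 3 counts being the limit. It had 15 counts in M-16, 3 in 5h-c5 and 1 in 5h-c6, and 399 or more in each of the remaining 7 libraries. In M-16 the chorion genes themselves were split. Cp15, Cp16, Cp18 and Cp19, neighbours in a cluster on chromosome 3L, stood at 189, 36.2, 166 and 36.8 CPM. Cp36 and Cp38, from the cluster on chromosome X, stood at 1.02 CPM each. At 30 days the summed chorion level also varied within the Smurfs, from 2.88 CPM in 1d-j to 1220 CPM in 1d-l. At 20 and 30 days 2 of the 9 genes fell in Smurfs, where 14.2% of all tested genes fell.

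**Figure D4:**
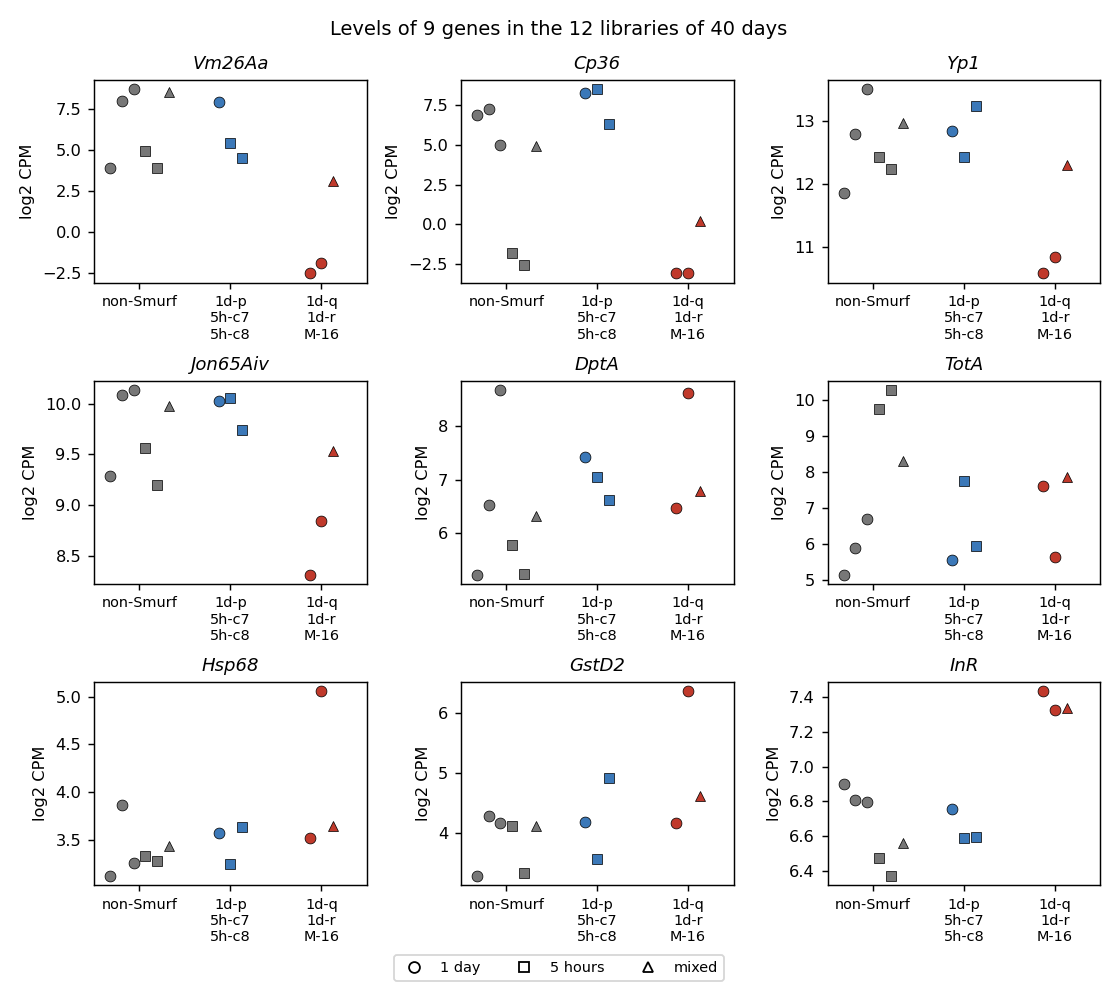
Levels (log2 CPM, prior count 2) of 9 genes in the 12 libraries of 40 days, grey for non-Smurfs, blue for 1d-p, 5h-c7 and 5h-c8, red for 1d-q, 1d-r and M-16, with the collection moment as the symbol. The red points lie below all others for Vm26Aa and above all others for InR, DptA and Hsp68 are high in single libraries, and Cp36 is low in 2 grey points of the 5-hour collection.

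Yolk followed the vitelline membrane in 1d-q and 1d-r. Yp1, a yolk protein, had 1528 and 1831 CPM in these libraries and 5044 CPM in M-16, against 7390, 5510 and 9660 CPM in the low-score libraries, in the order 1d-p, 5h-c7, 5h-c8. The non-Smurfs lay between 3698 and 11714 CPM with a median of 6304. M-16 was thus inside the non-Smurf range, and 1d-q and 1d-r were below it. Of the ecdysone synthesis genes, spo had 1.11, 1.17 and 1.35 CPM in 1d-q, 1d-r and M-16 and 2.67 to 6.67 CPM in the low-score Smurfs, with a lowest non-Smurf at 1.75 CPM. 5 of the 9 listed genes of this pathway passed the filter on low counts, and 4 of the 5 fell in young Smurfs, beside 14.2% of all tested genes.

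Digestive proteases were lowest in 1d-q and 1d-r, whereas M-16 and 1d-p were mixed. The Jonah proteases are serine endopeptidases of the midgut, and all 16 fell in young Smurfs (edgeR, median log2FC -1.84). At 40 days all 16 were over 2-fold below the mean of the non-Smurfs in 1d-q, 11 in 1d-r and 5 in M-16. In 1d-p it was 8, in 5h-c8 2 and in 5h-c7 0, where 15 of 16 were above the mean. Jon65Aiv had 318, 460 and 742 CPM in 1d-q, 1d-r and M-16 and 1042, 1067 and 858 CPM in 1d-p, 5h-c7 and 5h-c8, with non-Smurfs between 589 and 1125 CPM. The widest drop was that of Jon25Bii in 1d-q, to 0.0615 CPM, with 4.51 CPM in 1d-r and 5.15 CPM in M-16. Its lowest level in the 9 other libraries was 7.76 CPM, in 5h-c8. The 11 trypsins moved less. Their median log2 difference was -0.80, -0.57 and -0.53 in 1d-q, 1d-r and M-16 and 0.16, 0.54 and 0.18 in 1d-p, 5h-c7 and 5h-c8. betaTry had 143, 286 and 309 CPM in 1d-q, 1d-r and M-16 and at least 394 CPM in each other library of 40 days. Jon99Cii and Jon99Ciii are near-identical copies, so their separate counts are uncertain.

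Among the midgut markers, which include 3 Jonah proteases and 2 trypsins, the summed level was 2317 to 2776 CPM in the high-score libraries, 3543 to 3991 CPM in the low-score libraries and 2793 to 3816 CPM in the non-Smurfs. The homeobox gene lab, a marker that is no enzyme, was at 0.613 to 1.42 CPM in all 12 libraries. The part of midgut cell number in the protease levels was not tested.

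Antimicrobial peptides did not follow the 2 kinds. All 15 listed genes rose in young Smurfs (edgeR, median log2FC 3.57). At 40 days the highest library was a non-Smurf, 1d-o, with a median log2 difference of 3.50 from the other non-Smurfs, followed by 1d-r with 2.33. Next, 5h-c7 had 1.18, M-16 had 1.12, 1d-p had 0.76, 1d-q had 0.44 and 5h-c8 had 0.32. DptA, a peptide gene of the Imd pathway, had 395, 88.9 and 111 CPM in 1d-r, 1d-q and M-16 and 171, 133 and 97.7 CPM in 1d-p, 5h-c7 and 5h-c8, respectively. The non-Smurfs ranged from 37.4 to 408 CPM with a median of 67.5. Every 40-day Smurf was above this median and none was outside the range. Drs, the Toll target that the reporter line is named for, was highest in 5h-c7 with 2489 CPM and lowest in 1d-p with 330 CPM. The other 4 Smurfs had 614 to 1616 CPM and the non-Smurfs 560 to 1606 CPM. The bomanins, short peptides of the Toll pathway, had median log2 differences of 0.74 in 5h-c7, 0.83 in 5h-c8 and 0.73 in 1d-r, and of -0.51, -0.24 and -0.04 in 1d-p, 1d-q and M-16. Rel, the Imd transcription factor, was at 515 CPM in 1d-r and at 275 to 330 CPM in the other Smurfs, with non-Smurfs between 235 and 358 CPM.

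Turandot genes, secreted stress peptides downstream of JAK-STAT, set apart the 5-hour non-Smurfs. TotA had 857 and 1241 CPM in 5h-c5 and 5h-c6, 314 CPM in M-13 and 35.3 to 103 CPM in the 1-day non-Smurfs. In the Smurfs it was 47.2 CPM in 1d-p, 215 CPM in 5h-c7, 60.7 CPM in 5h-c8, 195 CPM in 1d-q, 49.4 CPM in 1d-r and 234 CPM in M-16. Both kinds of Smurfs overlapped in TotA. TotA fell in young Smurfs (log2FC -1.75 ± 0.44 SE, edgeR adjusted p = 0.00437). The cytokine gene upd3 was at 18.6 CPM in 1d-r, between 4.51 and 7.79 CPM in the other 5 Smurfs and between 1.95 and 7.30 CPM in the non-Smurfs. Its relative upd2 was at 7.04 CPM in 1d-r and at 1.35 CPM or less in every other 40-day library.

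Heat shock and detoxification genes were highest in 1d-r for Hsp68, GstD2 and puc, the examples below. The Hsp70 copies and Hsp68, inducible chaperones, all rose in young Smurfs (7 of 7, edgeR, median log2FC 3.62). In 1d-r all 7 were over 2-fold above the mean of the non-Smurfs, with a median log2 difference of 1.86. The medians of the other 5 Smurfs lay between -0.22 in 5h-c7 and 0.44 in 1d-p. Hsp68 had 33.1 CPM in 1d-r, 11.4 CPM in 1d-q, 12.5 CPM in M-16 and 11.8, 9.42 and 12.4 CPM in 1d-p, 5h-c7 and 5h-c8. Its non-Smurfs lay between 8.62 and 14.5 CPM, so 5 of 6 Smurfs were within their range. The Hsp70 copies are near-identical, and their separate counts are uncertain. GstD2, a glutathione S-transferase, had 82.1 CPM in 1d-r and 30.1 CPM in 5h-c8, and 11.6 to 24.4 CPM in the other 4 Smurfs, against 9.59 to 19.2 CPM in the non-Smurfs. puc, a JNK phosphatase and target, had 143 CPM in 1d-r and 99.1 to 111 CPM in the other Smurfs, with the highest non-Smurf at 123 CPM.

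Metallothioneins, small metal-binding proteins, joined 1d-r with low-score libraries. MtnD had 33.8 CPM in 1d-r, 34.6 CPM in 5h-c7, 21.8 CPM in 5h-c8, 13.5 CPM in 1d-q and 11.2 CPM in 1d-p. M-16 had 2.84 CPM and the non-Smurfs 1.61 to 4.93 CPM. Of the 6 Smurfs, 5 were above every non-Smurf in MtnD, the 3 low-score ones included, and M-16 was inside their range. MtnB was at 35.7 CPM in 5h-c7, 34.1 CPM in 1d-r and 19.6 CPM in 5h-c8, against 3.66 to 8.44 CPM in the other 3 Smurfs and 3.08 to 8.62 CPM in the non-Smurfs. In young Smurfs 1 of the 8 tested genes of the list, with ferritin included, rose and 2 fell. Over all tested genes 20.1% rose and 14.2% fell, so nothing is read from these counts. The 1 that rose was MtnD (log2FC 0.85, edgeR adjusted p = 0.0450).

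Insulin signalling held the gene with the widest gap among genes higher in the high-score libraries and whose mean log2 CPM was 2 or more. Its counts may be shared with overlapping non-coding genes on both strands. InR, the insulin receptor (chromosome 3R, 21570248 to 21619321, BDGP6.54), had 172, 160 and 161 CPM in 1d-q, 1d-r and M-16. In 1d-p, 5h-c7 and 5h-c8 it had 108, 96.1 and 96.7 CPM, and in the non-Smurfs 82.8 to 119 CPM. The 3 high-score libraries were above the other 9, and the low-score libraries were inside the non-Smurf range. In young Smurfs InR rose by a log2FC of 0.47 ± 0.12 SE (edgeR adjusted p = 0.00378). Thor, an inhibitor of translation that FoxO switches on, had 475 CPM in 1d-r, 264 CPM in 1d-q and 275 CPM in M-16. It had 255, 229 and 223 CPM in the low-score libraries, and its non-Smurfs ranged from 159 to 314 CPM. Of 13 measured genes of the list, 6 rose in young Smurfs and none fell, beside 20.1% and 14.2% of all tested genes.

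Metabolic and ribosomal lists moved in 1d-q. All 33 measured subunits of complex I and all 15 citric acid cycle genes were below the mean of the non-Smurfs in 1d-q, with a median log2 difference of -0.48 in both. In 1d-r the medians were -0.09 and -0.18, in M-16 0.04 and 0.03, and in the low-score libraries they lay between -0.16 and 0.05. Cytosolic ribosomal proteins had a median of -0.40 in 1d-q and of -0.02 to 0.04 in the other 5 Smurfs. Complex I fell in young Smurfs in 16 of 33 genes, and ribosomal proteins in 2 of 85 (edgeR), where 14.2% of all tested genes fell. The mitochondrially encoded share of the counts was highest in 1d-q, as given above, and its part in these lists was not tested. FASN1, the main fatty acid synthase, had 881 and 834 CPM in 1d-q and 1d-r, 1739 CPM in M-16, 1355, 1309 and 1685 CPM in the low-score libraries and 1080 to 2104 CPM in the non-Smurfs. Ldh, lactate dehydrogenase, was highest in 1d-r with 84.3 CPM, and the other 11 libraries had 19.7 to 49.0 CPM.

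**Figure D5:**
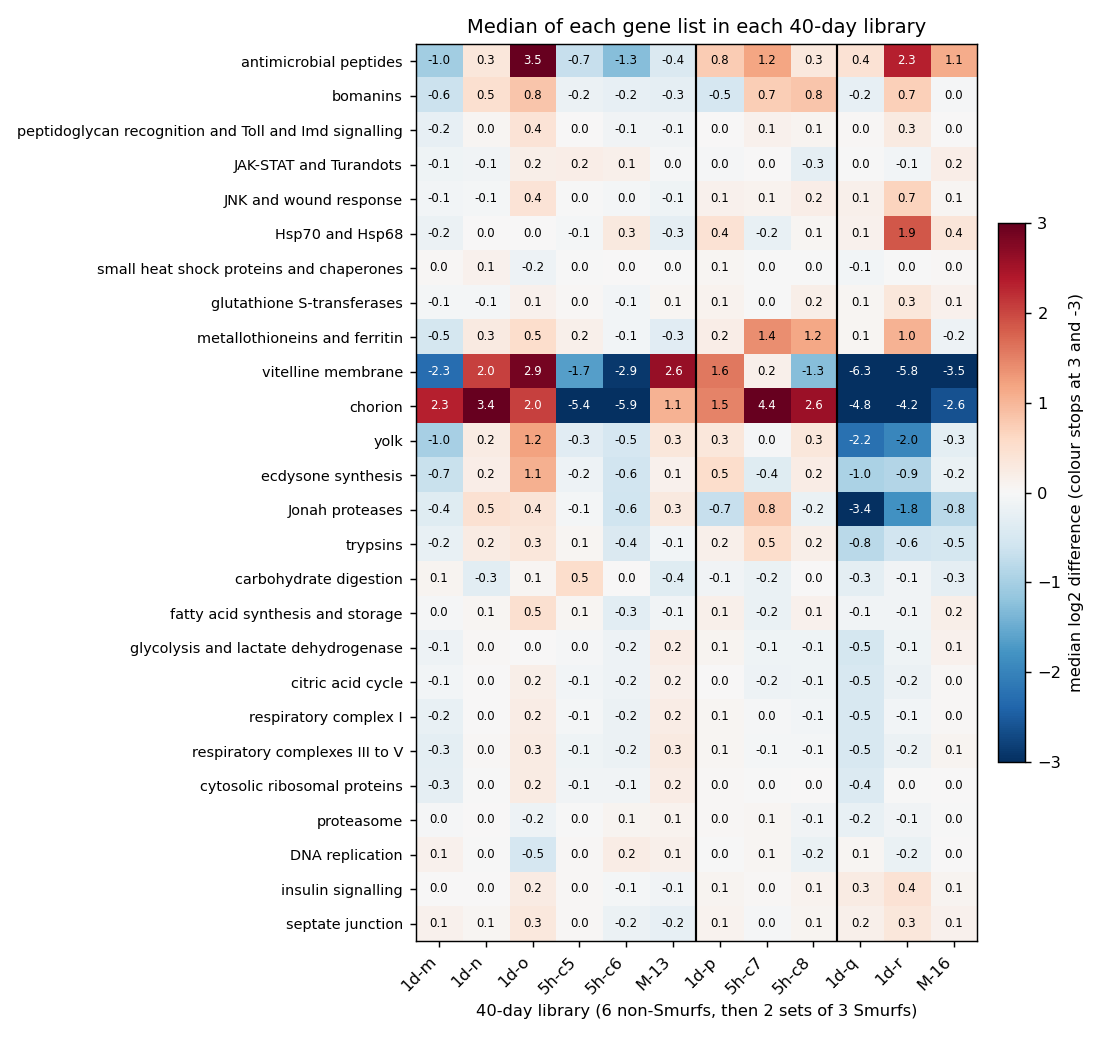
Median log2 difference of each of 26 gene lists in each 40-day library from the mean of the 40-day non-Smurfs (the other 5 for a non-Smurf), with the value in each cell and colour limited to 3 and -3. Vitelline membrane, yolk and Jonah proteases are low in 1d-q and 1d-r, chorion is low also in the non-Smurfs 5h-c5 and 5h-c6, antimicrobial peptides are highest in the non-Smurf 1d-o, and Hsp70 and Hsp68 are high in 1d-r.

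Markers of other tissues varied between the 2 1-day libraries of the high-score kind. The 7 photoreceptor genes summed to 684 CPM in 1d-q and 4642 CPM in 1d-r, against 2360 CPM in M-16, 2344 to 3062 CPM in the low-score libraries and 2017 to 2929 CPM in the non-Smurfs. ninaE, the main rhodopsin, had 250 CPM in 1d-q and 2312 CPM in 1d-r. Both were outside the range of all others, in opposite directions, and its part in the other results was not tested. Haemocyte markers summed to 670 CPM in 1d-q, 737 CPM in 1d-r and 657 CPM in 5h-c7, and to 884 to 1102 CPM in the other 9 libraries. Hml, a haemocyte gene, had 24.4, 14.1 and 29.0 CPM in 1d-q, 1d-r and M-16 and 14.3 and 17.5 CPM in 5h-c7 and 5h-c8. All 5 lay below the lowest non-Smurf with 37.0 CPM, and 1d-p had 52.9 CPM. Germline markers summed to 2126 to 3094 CPM in the high-score libraries, a range that holds all other 40-day libraries.

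The full extent of the division was counted gene by gene. The 3 high-score libraries were above all 9 other libraries of 40 days in 120 of 10529 genes (1.14%) and below all in 127 (1.21%). Against the 3 low-score libraries alone they were all above in 496 genes (4.71%) and all below in 696 (6.61%). Of the 2086 reference genes higher in Smurfs, 86 (4.12%) were among the first and 0 (0.00%) among the second, and of the 1471 lower ones 105 (7.14%) were among the second and 0 (0.00%) among the first. Since the profiles set the libraries apart, nothing is read from these shares. Beside InR, the genes with the widest gap to the low-score Smurfs included CG16898 and CG11893. CG11893 had 51.2, 54.7 and 43.8 CPM in 1d-q, 1d-r and M-16 and 28.6, 25.5 and 35.1 CPM in 1d-p, 5h-c7 and 5h-c8. Its non-Smurfs had 13.3 to 22.5 CPM, so both kinds of Smurfs were above the non-Smurfs in this gene, the high-score kind more so. On the lower side the 10 widest gaps among genes whose mean log2 CPM was 2 or more were CG14309, Cp36, dec, Vml, Cp38, Cp7Fb, psd, Vm34Ca, Vm26Aa and CG13992, most of them eggshell genes by name. dec, an eggshell protein gene, had 2.34, 1.62 and 3.25 CPM in 1d-q, 1d-r and M-16, 390, 426 and 208 CPM in 1d-p, 5h-c7 and 5h-c8, and 26.7 to 852 CPM in the non-Smurfs.

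Some genes joined both kinds against the non-Smurfs. All 6 Smurfs were above all 6 non-Smurfs in 32 of 10529 genes (0.304%) and below in 9 (0.0855%). Of the 924 splits of these libraries into 6 and 6, each direction is met by 1, so a random order also gives such genes. Nothing is read from these shares. l(2)efl, a small heat shock protein, had 89.3, 190 and 95.2 CPM in 1d-q, 1d-r and M-16 and 73.5, 87.5 and 90.9 CPM in 1d-p, 5h-c7 and 5h-c8, against 48.1 to 70.6 CPM in the non-Smurfs. The margin between the lowest Smurf and the highest non-Smurf was small next to the spread among the Smurfs, and the test over all 6 and 6 libraries did not pass (log2FC 0.79 ± 0.21 SE, edgeR adjusted p = 0.635). nAChRbeta3, a nicotinic receptor subunit, had 3.57, 8.01 and 6.43 CPM in the high-score and 10.0, 3.53 and 3.17 CPM in the low-score libraries, and 11.9 to 20.8 CPM in the non-Smurfs (log2FC -1.28 ± 0.28 SE, edgeR adjusted p = 0.559). The low-score libraries on their own were above all non-Smurfs in 136 genes (1.29%) and below in 28 (0.266%). MtnD is among the first. These counts were not tested either, and a random order of the libraries also gives such genes, so nothing is read from them.

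A second scale was built from genes that change with age in non-Smurfs. Between 20 and 40 days, non-Smurfs changed in 129 of 10053 genes (1.28%, edgeR), 103 higher (1.02%) and 26 lower (0.259%), and the ageing score is the slope on these genes, with 0 for the mean 20-day and near 1 for the 40-day non-Smurfs. The 40-day non-Smurfs scored between 0.802 and 1.13, and since they gave the genes, their place near 1 was fixed in advance. Young Smurfs also scored high, from 0.494 to 0.992 at 20 days and from 0.397 to 1.19 at 30 days. Among Smurfs the scale therefore does not measure age alone. The high-score Smurfs scored 1.26 in 1d-r, 1.15 in 1d-q and 1.06 in M-16. The low-score Smurfs scored 0.818 in 5h-c8, 0.706 in 1d-p and 0.370 in 5h-c7. The last 2 were below every 40-day non-Smurf on this scale, and 5h-c7 was close to the mean 30-day non-Smurf, 0.360. When the 129 genes were limited to those not called in young Smurfs, 5h-c7 scored 0.967 and 5h-c8 1.26.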

How the data were processed

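The deposited values are raw counts per gene for 32 libraries. The authors prepared stranded mRNA libraries and, per the labels, used FastQC, HISAT2 on BDGP6 and featureCounts; the strand setting of the counting is not given in the sources used here. No normalization had been applied. Of 17737 listed genes 17599 were matched to a position in BDGP6.54.

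Counts were tested with edgeR 4.0.16 in R 4.3.3 (TMM, filterByExpr, quasi-likelihood F test, Benjamini-Hochberg, threshold 0.05), with DESeq2 1.42.0 as an alternative. SE was derived from the F statistic. Within collection moments a model of 6 cells (state by moment) was used, in which the mixed libraries add no residual. Levels are TMM-scaled CPM, or log2 CPM with a prior count of 2. Scores are least-squares slopes through the origin. The steps were tested on simulated data. Replicate pairs of 40 days differed by a chi-square per degree of freedom of 11.8 to 104 over 30 pairs, so each library counted once. For M-7 and M-10 the labels give 32 days, and they were used with the 30-day libraries.

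The members and the 26 gene lists and 10 marker lists were chosen with earlier results of these data known; 6 list members were not matched. Genes were named as the 5 largest changes per direction past the threshold with a mean of 2 log2 CPM or more, the 10 widest gaps per direction, extremes of lists and a fixed set, and genes in which all 6 Smurfs lay above or below all 6 non-Smurfs; the other genes named, among them amd, CG5973, CG14187, CG17169, MtnB, MtnD, upd2, spo, lab, betaTry, Jon25Bii, the chorion genes Cp15, Cp16 and Cp19, Hml and ninaE, were chosen after their values were seen. Alternatives were RLE scaling, DESeq2, other filters, other sets of libraries, other score genes and leaving out each library in turn.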

Additional observations from a re-analysis of the deposited data

Results flagged for a closer look

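Of 108 groups of 6 libraries examined on the CPM scale, 25 (23.1%) held a library far from the other 5, where chance gives about 1 in 20 (Dixon's criterion). Many of the flagged values are correlated, since they come from the same few libraries, and CPM values are skewed. Library 1d-r stood apart on the high side among the 40-day Smurfs for DptA (395 CPM), CecA1 (96.9 CPM), edin (18.2 CPM), Rel (515 CPM), upd2 (7.04 CPM), upd3 (18.6 CPM), puc (143 CPM), Hsp68 (33.1 CPM), Hsp70Bb (9.63 CPM), GstD2 (82.1 CPM), Thor (475 CPM) and l(2)efl (190 CPM). Library 1d-q stood apart by its share of mitochondrial counts, 9.59%, and 1d-p by Vm26Aa, 235 CPM. Among the 40-day non-Smurfs, 1d-o stood apart for Cp16 (111 CPM), Cp18 (653 CPM), Cp19 (240 CPM), DptA (408 CPM), CecA1 (152 CPM), edin (22.6 CPM) and Thor (314 CPM). The non-Smurf 1d-n stood apart for Hsp68 (14.5 CPM), M-13 for Cp7Fc (23.7 CPM), 5h-c5 for Jon25Bii (21.2 CPM) and 5h-c6 for nAChRbeta3 (20.8 CPM).

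The effect of the Smurf state differed between 1 day and 5 hours at 40 days (interaction term, edgeR, adjusted p under the threshold) for 9 genes. The difference, 1 day minus 5 hours on the log2 scale, was -18.57 for Cp18, -12.26 for CG14187, -11.08 for Fcp3C, -10.18 for Cp7Fc, -8.41 for CG17169, -8.41 for CG14834, -5.83 for Jhbp5, -5.17 for amd and -0.99 for CG5973. For genes near 0 counts in some groups, such as Cp18 and CG14187, these fitted sizes depend on the prior count.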

How the results depend on the processing

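No paired analysis was possible because the labels give no number that ties a Smurf library to a non-Smurf library. No test result changed its direction under any alternative run. Among the scores of single libraries, those of the non-Smurfs 1d-m, 1d-n, 1d-o, 5h-c5 and 5h-c6, which lie near 0, changed sign under some alternatives. DESeq2 called more genes than edgeR: 23 over all 40-day libraries, 56 at 1 day, 82 at 5 hours and 82 for the difference of the 2 effects, and at 30 days 519, 735 and 34, with 512 for ageing. Without a filter on low counts the 40-day calls were 3 at 1 day, 10 at 5 hours and 15 for the difference, and the 30-day calls 125 at 1 day and 246 at 5 hours. With at least 10 counts in every library 0 genes passed for the 40-day difference, a filter that leaves out most of its genes. Fitted alone, the 5-hour libraries gave 29 calls at 40 days and 40 at 30 days, and the 1-day libraries of 30 days gave 17. The reference held 1898 genes from the 20-day and 1450 from the 30-day libraries alone. Leaving out 1 library at a time gave 0 to 1 calls at 1 day, 0 to 7 at 5 hours and 0 to 39 for the difference at 40 days. At 30 days it gave 2 to 398, 9 to 301 and 0 to 120, and for ageing 23 to 435. An arm left with 1 library was assumed to vary like the other groups. The difference in the reference score lay between 0.200 and 0.337 with 1 library left out and was 0.257 without the mixed libraries (exact permutation p = 0.0794). The score of 1d-r was 0.419 on variance-stabilised values. With a median in place of the slope, the score was 0.131 in 1d-m, -0.0464 in 1d-o and -0.238 in M-13. The ageing score on variance-stabilised values was 0.491 in 1d-m, 0.581 in 1d-n, 0.613 in 1d-o, 0.615 in 5h-c5, 0.599 in 5h-c6, 0.470 in M-13, 0.631 in 1d-q, 0.759 in 1d-r and 0.587 in M-16. Without the Smurf genes it was 0.945 in 5h-c6, 0.967 in 5h-c7 and 1.26 in 5h-c8. The cause of these shifts was not tested.

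Each kind holds 3 libraries, and the collection moments are spread unevenly over them, so kind and moment cannot be fully told apart. The division rests on the same counts that are described. The depth allows a level of 0.146 to 0.250 CPM for a gene counted 0 times in a 40-day library, which covers counting error only. Genes near this limit, such as the chorion genes of 1d-q and 1d-r, have no fold change of fixed size.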

Other observations

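Within the high-score kind, 1d-q and 1d-r also differed in genes outside the lists. These pairs were picked as the widest differences and carry no test. Dh44, a neuropeptide related to the vertebrate corticotropin-releasing hormone, had 1.78 CPM in 1d-q and 26.3 CPM in 1d-r. The rhodopsins Rh3 and Rh6 had 10.0 and 4.74 CPM in 1d-q and 106 and 49.9 CPM in 1d-r, in the same direction as ninaE. Fst, a gene known for its rise after cold, had 92.5 CPM in 1d-q, 86.8 CPM in M-16 and 856 CPM in 1d-r. The gene phu had the opposite order, with 146 CPM in 1d-q, 176 CPM in M-16 and 11.1 CPM in 1d-r.

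Within the low-score kind, the immune-induced gene IBIN had 4.14 CPM in 1d-p and 44.3 CPM in 5h-c7, and Drs moved the same way. BaraB had 7.11 CPM in 1d-p, 0.550 CPM in 5h-c7 and 14.4 CPM in 5h-c8. The protease gene Jon25Biii had 114 CPM in 5h-c7, 20.4 CPM in 5h-c8 and 10.1 CPM in 1d-p.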
